A study of Rattus norvegicus with 21 samples.

Results

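Islets of Langerhans were taken from Lewis rats, an inbred rat strain, 4 weeks after removal of 90% of the pancreas (PX) or after a sham operation, and their polyA RNA was sequenced. The PX rats carry animal numbers in 2 separate runs: 57, 58, 62, 65, 66 and 70, and 36, 37, 38, 41 and 44. These 6 and 5 libraries, 11 of the 21 in the series, are compared here, divided by animal number, with the 10 sham libraries giving levels and entering a single alternative fit. Every rat of both runs had the same operation, strain and follow-up, and the labels name no other treatment, give no sex, and do not say what sets the runs apart. The labelled 4-5 weeks is not stated to be an age or a time after surgery. The runs are called PX 57 to 70 and PX 36 to 44.

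Islets are clusters of hormone-secreting cells scattered through the exocrine pancreas, whose acinar cells make digestive enzymes. Isolated islets can carry acinar tissue with them, and removal of most of the pancreas leaves a small remnant whose islets face a high glucose load and in which macrophages and matrix-producing cells can gather. In bulk RNA, more cells of a type and more RNA per cell cannot be told apart.

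PX 57 to 70 libraries held from 6244161 to 13187959 counts, with a median of 9258314, and PX 36 to 44 libraries from 4001908 to 11205114, with a median of 5486631. Average blood glucose before sacrifice, given without a unit, was 126 ± 26.6 in PX 57 to 70 and 121 ± 20.9 in PX 36 to 44 (SD, n = 6 and 5, two-sided exact permutation test, p = 0.788). The highest PX averages were 174 in PX 65, 156 in PX 41 and 140 in PX 57. Sham rats had averages from 82 to 104. Genes with at least 1 count numbered from 16886 to 17876 in PX 57 to 70 and from 16485 to 17347 in PX 36 to 44. Mitochondrial genes took 2.37% ± 0.81 of counts in PX 57 to 70 and 3.54% ± 1.57 in PX 36 to 44 (two-sided exact permutation test, p = 0.156, or 0.405 adjusted over 13 library measures). The library of PX 65 stood apart: its scaling factor was 0.408, against 0.889 to 1.30 in the other 10 PX libraries. The labels do not say that the libraries are independent beyond their animal numbers, so the p-values speak only of library-to-library spread, which may be technical.

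Acinar enzyme genes took 30.2% ± 12.9 of all counts in PX 57 to 70 and 11.9% ± 4.15 in PX 36 to 44 (SD, n = 6 and 5). No gene passed the test across all genes. Of 13529 genes tested with edgeR's quasi-likelihood test, 0 were higher and 0 lower in PX 57 to 70 at an adjusted p under 0.05, and the smallest adjusted p was 0.169. At an unadjusted p under 0.05, 1202 genes (8.88%) were higher and 849 (6.28%) lower. DESeq2 called 198 genes (1.47%) higher and 26 (0.193%) lower of 13506. In 134 genes (0.990%) every PX 57 to 70 library lay above every PX 36 to 44 library, and in 70 (0.517%) every one lay below. Log2 fold changes below are PX 57 to 70 over PX 36 to 44 with their standard error, on depth-scaled read counts (CPM) adjusted by edgeR's trimmed mean of M-values (TMM), and the median over all genes was -0.03. With scaling by library totals alone that median was -0.50, and 168 genes were higher and 3995 lower at an unadjusted p under 0.05. With TMM, 47.1% of all genes tested were above 0. That is the share to set beside the counts of list members above or below 0.

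The 31 acinar enzyme genes measured took 19.9, 26.02, 31.2, 54.6, 30.4 and 19.2% of counts in PX 57, 58, 62, 65, 66 and 70. They took 6.96, 18.1, 9.79, 11.8 and 13.02% in PX 36, 37, 38, 41 and 44. No PX 36 to 44 library reached the lowest PX 57 to 70 library, and the nearest pair was PX 70 and PX 37. The difference of means was 18.3 percentage points (two-sided exact permutation test, p = 0.00866), and 13.4 points without PX 65. This share moves with the runs. Genes were also fitted with the acinar score of each library as a covariate, and list medians from that fit are given for some of the lists. The runs do not overlap in that score, so run and acinar level cannot be told apart. The split into runs was proposed with this share known, so the p is no independent evidence. Sham libraries spanned 0.689% to 25.8%, so both runs overlapped them. The 6 hormone genes Ins1, Ins2, Gcg, Sst, Ppy and Iapp took 12.1% ± 5.11 of counts in PX 57 to 70 and 13.03% ± 2.40 in PX 36 to 44, and their lowest share, 3.88%, was in PX 65.

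**Figure D1:**
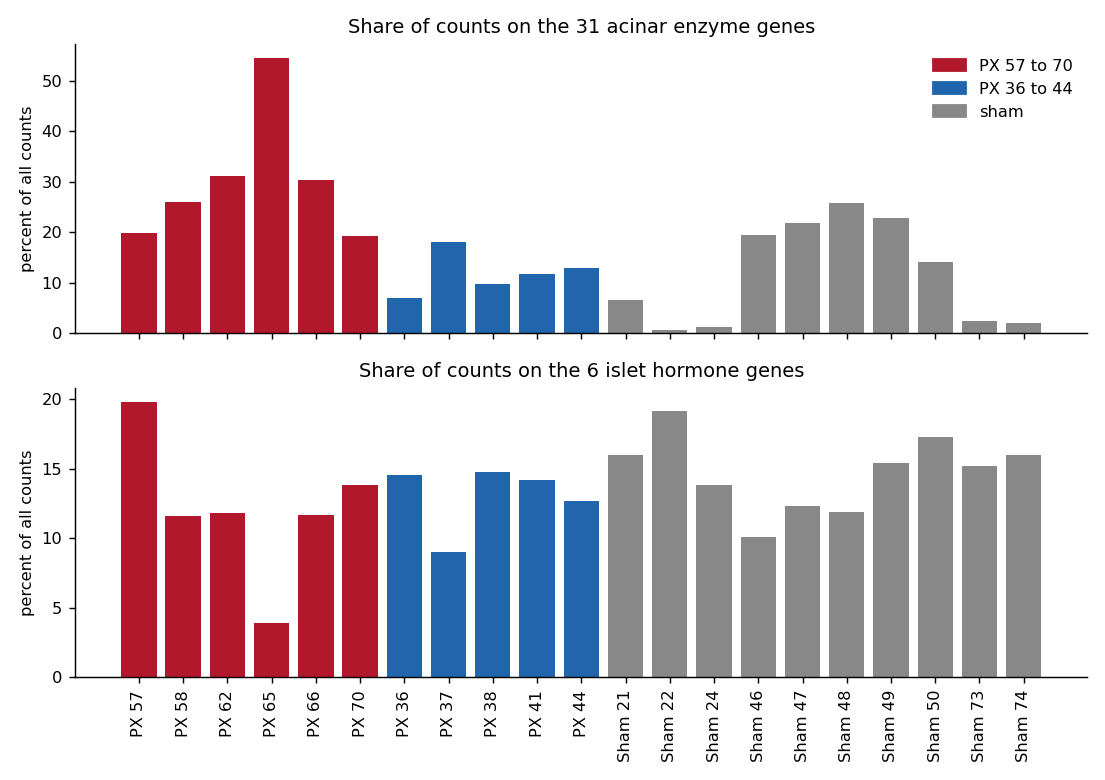
Bars give the percent of all counts on 31 acinar enzyme genes (top) and on 6 islet hormone genes (bottom) in each library, with PX 57 to 70 in red, PX 36 to 44 in blue and sham in grey. All 6 PX 57 to 70 libraries lie at 19.2% or more for the acinar genes, all 5 PX 36 to 44 libraries at 18.1% or less, and the hormone shares of the runs overlap.

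All 31 acinar enzyme genes had positive log2 fold changes, from 1.16 to 3.11 with a median of 2.11, against a median of -0.03 over all genes. Of the 31, 30 had an unadjusted p under 0.05 in edgeR, 14 were called higher by DESeq2, and 19 did not overlap between the runs. These genes make up the share that was known when the split was proposed, so the counts are no independent evidence either. Without PX 65 the median was 1.496, with 30 of 31 under 0.05. Without PX 44 and PX 65 it was 1.49, with 29 under 0.05. With average blood glucose as a covariate it was 1.75, and in the 8 animals with an average of 121 or less it was 1.52. Under library totals it was 1.25, with 29 under 0.05, and with the acinar score, built from these same genes, -0.01 with 0. The promoters of 3 of these genes, chosen by hand, are shown. The genes had positive log2 fold changes. The upstream sequence of each holds CACCTG. The acinar factor PTF1 is a complex of Ptf1a with Rbpjl or Rbpj. Whether the marked letters, with their spacing, form a PTF1 site was not tested. Sequences are from RefSeq, build GRCr8, the 250 bases before the annotated start, and capitals mark CACCTG (an E-box) and TGGGAA (the Rbpj core), searched on both strands, which do not overlap each other.
Ctrl promoter (chr19:50738980-50739229, minus strand): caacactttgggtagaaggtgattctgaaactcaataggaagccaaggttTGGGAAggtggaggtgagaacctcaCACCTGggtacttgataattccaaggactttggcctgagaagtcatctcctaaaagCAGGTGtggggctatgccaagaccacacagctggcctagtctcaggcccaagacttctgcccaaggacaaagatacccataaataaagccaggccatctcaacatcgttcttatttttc
Ctrb1 promoter (chr19:56566979-56567228, minus strand): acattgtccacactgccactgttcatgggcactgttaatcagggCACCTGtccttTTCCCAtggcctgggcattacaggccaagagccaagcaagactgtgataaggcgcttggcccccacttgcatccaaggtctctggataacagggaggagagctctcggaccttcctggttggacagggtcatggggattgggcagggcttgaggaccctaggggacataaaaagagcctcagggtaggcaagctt
Cela1 promoter (chr7:133665062-133665311, minus strand): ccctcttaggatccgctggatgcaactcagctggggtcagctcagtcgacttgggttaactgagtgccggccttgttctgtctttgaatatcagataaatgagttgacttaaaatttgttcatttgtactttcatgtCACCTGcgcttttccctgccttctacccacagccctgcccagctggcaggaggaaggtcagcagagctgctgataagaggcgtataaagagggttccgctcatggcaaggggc
Of the 35 acinar enzyme genes listed, 24 had a promoter in RefSeq's table. CACCTG was in 45.8% of these and in 15.9% of all 33469 promoters, and TGGGAA in 62.5% and 22.1%. The acinar genes entered with a single promoter each, while the 33469 were all entries without that limit, so the shares are not of like units. The Ctrl and Ctrb1 promoters hold both, and the Cela1 promoter holds CACCTG without TGGGAA. A match is a description of the letters and does not show binding.

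Values per library are given in the order PX 57, 58, 62, 65, 66 and 70, and PX 36, 37, 38, 41 and 44. Chymotrypsin-like Ctrl, which cleaves dietary protein, had 3009, 3273, 4835, 16389.6, 5413 and 3538 CPM in PX 57 to 70, against 827, 1861, 1280.4, 1482 and 1595 CPM in PX 36 to 44. Every PX 57 to 70 value lay above every PX 36 to 44 value, and the log2 fold change was 2.11 ± 0.45 (edgeR, unadjusted p = 0.00037, adjusted p = 0.169). Ctrb1, the chymotrypsinogen precursor, averaged 61344 ± 55221 CPM in PX 57 to 70 and 11115 ± 6465 CPM in PX 36 to 44, with a log2 fold change of 2.46 ± 0.64 and no overlap. Cela1, a pancreatic elastase, averaged 11180.3 ± 10129 CPM in PX 57 to 70 and 2728 ± 1586 CPM in PX 36 to 44, and its runs overlapped at PX 70 and PX 37.

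Zg16, a lectin of the zymogen granule membrane, had 739, 967, 1446, 3288, 952 and 474 CPM in PX 57 to 70, against 173, 279.6, 188, 296 and 155 CPM in PX 36 to 44. The runs did not overlap and the log2 fold change was 2.59 ± 0.44 (edgeR, unadjusted p = 4.4e-05). Spink1, which inhibits trypsin inside the granule, had 162, 136, 179, 815, 171 and 107 CPM in PX 57 to 70, against 45.3, 52.2, 51.4, 57.3 and 19.2 CPM in PX 36 to 44. PX 65 was the highest and PX 44 the lowest of all 11, and the log2 fold change was 2.54 ± 0.53. Without PX 65 edgeR called 7 genes higher, among them Zg16 (adjusted p = 0.0337) and Spink1 (adjusted p = 0.0337), and 0 lower. Carboxypeptidase Cpa1 and the bile-salt lipase Cel, both secreted by acinar cells, had log2 fold changes of 2.04 ± 0.51 and 1.89 ± 0.51. Trypsinogens and other near-identical gene copies (Prss1, Prss2, Prss3, Try5, Try10) can share reads, so their separate values are uncertain.

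Genes that build the acinar cell were also mostly above 0. Of 16 acinar regulators and machinery genes tested, 15 were above 0 with a median of 1.18, 10 had an unadjusted p under 0.05 in edgeR, and 4 were called by DESeq2. The median was 0.50 with 6 under 0.05 under library totals, and -0.19 with 0 under 0.05 with the acinar score. Ptf1a, the factor that sets acinar identity, had 5.66, 4.84, 4.89, 17.7, 6.02 and 5.07 CPM in PX 57 to 70, against 1.91, 5.55, 2.29, 2.61 and 4.00 CPM in PX 36 to 44. PX 37 lay within the PX 57 to 70 range, and the log2 fold change was 1.16 ± 0.41. Its partner Rbpjl had a log2 fold change of 1.21 ± 0.44, with 61.5 CPM in PX 37 and 13.4 CPM in PX 44. Cldn10, a tight junction claudin, and Aqp12a, a water channel of acinar cells, had log2 fold changes of 2.56 ± 0.56 and 2.34 ± 0.55.

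Acinar injury and Reg protein genes, 10 tested, were all above 0 with a median of 1.56, 7 with an unadjusted p under 0.05 in edgeR. The count was 5 without PX 65 (median 1.04), and 2 without PX 44 and PX 65 (median 1.02). It was 2 under library totals (median 0.77) and 0 with the acinar score (median 0.52). Reg3b, a secreted lectin of the injured pancreas, had 292, 455, 102, 1282, 535 and 199 CPM in PX 57 to 70, against 223, 52.2, 34.3, 251 and 37.4 CPM in PX 36 to 44. PX 62 and PX 70 lay below PX 36 and PX 41, so the runs overlapped, and the log2 fold change was 1.996 ± 0.69. Tff2, a trefoil peptide of mucous secretions, had 416, 405, 591, 2488, 497 and 289 CPM in PX 57 to 70, against 79.3, 249.8, 87.6, 123 and 150.3 CPM in PX 36 to 44. Every PX 57 to 70 value was higher, with a log2 fold change of 2.50 ± 0.56 (edgeR, unadjusted p = 0.00052). Of 19 duct genes, 4 had an unadjusted p under 0.05, all higher, with a median of 0.22. Krt19, a duct keratin, averaged 36.7 ± 16.7 CPM in PX 57 to 70 and 31.1 ± 10.5 CPM in PX 36 to 44 (log2 fold change 0.25 ± 0.35).

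Macrophage genes spread widely within both runs. All 20 macrophage markers tested were above 0 with a median of 0.62, but 2 had an unadjusted p under 0.05 in edgeR, a share of the list close to the 8.88% of all genes, and 0 were non-overlapping. Their summed level was 238 to 1868 CPM in PX 57 to 70 and 207 to 656 CPM in PX 36 to 44. The mean log2 CPM of the list gave p = 0.275 between the runs (two-sided exact permutation test, 0.447 adjusted over 13 library measures). With the acinar score the list median was 0.56. Csf1r, the receptor for the growth factor of the macrophage lineage, had 49.6, 127, 159, 85.1, 35.3 and 41.03 CPM in PX 57 to 70, against 68.2, 44, 46.4, 93.03 and 28.9 CPM in PX 36 to 44. PX 58, PX 62 and PX 65 were high in one run and PX 41 in the other, and the log2 fold change was 0.56 ± 0.40. Sham libraries had 10.6 to 31.2 CPM when all 21 libraries were scaled together.

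Of 19 genes of activated macrophages, 18 were above 0 with a median of 1.18, and 10 had an unadjusted p under 0.05 in edgeR. Without PX 44 and PX 65 the count was 1 with a median of 1.07, without PX 65 alone it was 8 with a median of 1.14, and without PX 44 alone 4 with a median of 1.05. With the macrophage score as a covariate the count was 2 and the median 0.17, with the acinar score 0 and 0.60, and under library totals 0 higher, 1 lower and 0.64. The mean log2 CPM of the list gave p = 0.240 between the runs (two-sided exact permutation test, 0.447 adjusted over 13 library measures). Spp1, osteopontin, secreted by macrophages and duct cells, had 278, 418, 665, 503, 40.4 and 40.4 CPM in PX 57 to 70, against 81.3, 38.7, 36.3, 156 and 32.2 CPM in PX 36 to 44. PX 66 and PX 70 lay among the PX 36 to 44 libraries, and the log2 fold change was 2.23 ± 0.71 (edgeR, unadjusted p = 0.0071). Mmp12, the macrophage elastase, had 18.4, 289, 372, 221, 19.3 and 41.9 CPM in PX 57 to 70, against 85.02, 40.9, 12.1, 67.6 and 73.7 CPM in PX 36 to 44. PX 57 and PX 66 were below 4 of the 5 PX 36 to 44 libraries, and the log2 fold change was 1.52 ± 0.76. Gpnmb, a glycoprotein of lipid-laden macrophages, had 12.8, 517, 459, 60.9, 43.5 and 50.4 CPM in PX 57 to 70, against 69.5, 56.3, 13.3, 91.9 and 51.2 CPM in PX 36 to 44. PX 58 and PX 62 stood above all other libraries. For Spp1, Mmp12 and Gpnmb the sham libraries did not exceed 17.6, 3.61 and 4.27 CPM, all below the lowest PX library on the scale of all 21.

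**Figure D2:**
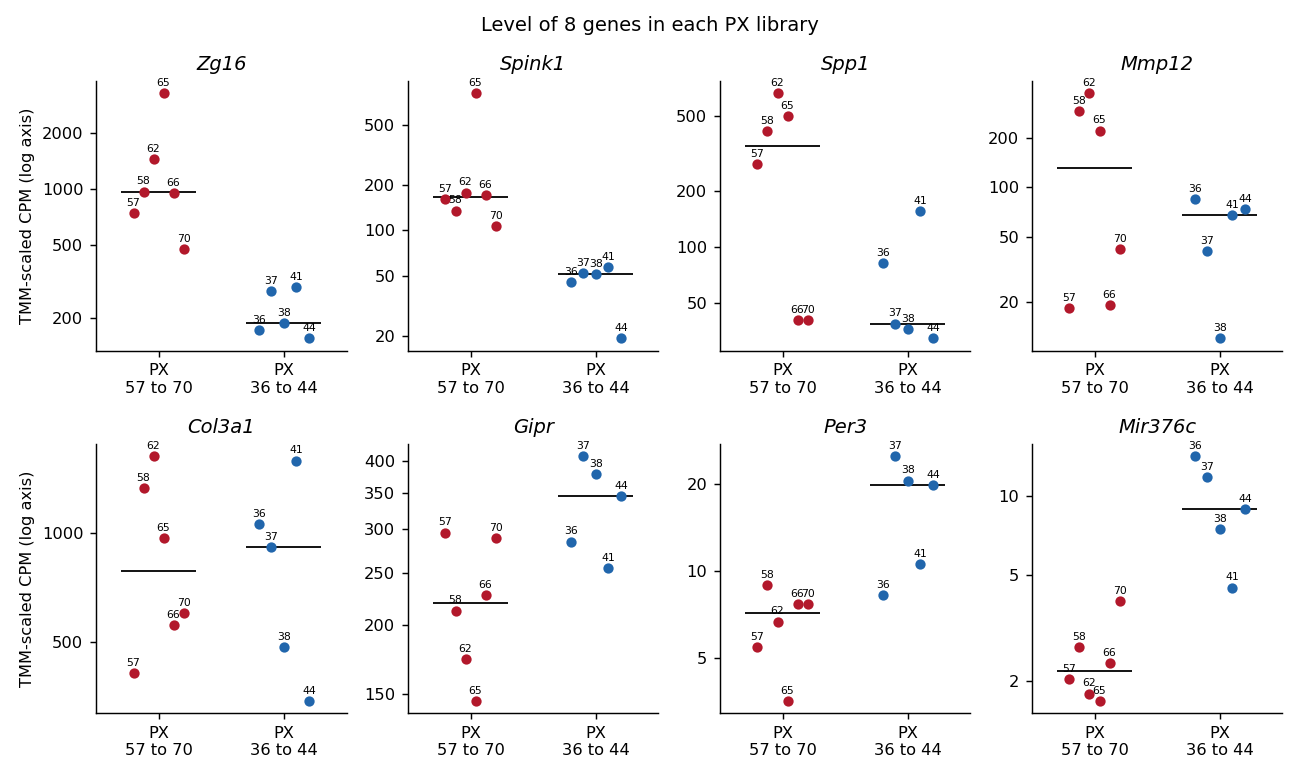
Points give the TMM-scaled CPM (log axis, with its own range per gene) of 8 genes in each PX library, labelled by animal number, with the median as a line. Zg16, Spink1 and Mir376c do not overlap between the runs, while Spp1, Mmp12 and Col3a1 spread widely within both.

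Inflammation and NF-kB genes had a median of 0.08 over 26 tested, with 3 higher and 0 lower at an unadjusted p under 0.05. The mean log2 CPM of the list gave p = 0.504 between the runs (two-sided exact permutation test, 0.728 adjusted over 13 library measures). Il1rn, the interleukin-1 receptor antagonist, had 5.55, 65.7, 69.1, 30.4, 5.75 and 5.84 CPM in PX 57 to 70, against 11.96, 8.64, 5.19, 16.5 and 9.11 CPM in PX 36 to 44. Again PX 58, PX 62 and PX 65 were high and the other 3 lay inside the PX 36 to 44 range. Its log2 fold change was 1.56 ± 0.68, and 0.02 with the macrophage score as a covariate. Of 21 complement genes 0 had an unadjusted p under 0.05 in either direction, and C3, the central component, averaged 90.6 ± 69.1 CPM in PX 57 to 70 and 59.1 ± 36.9 CPM in PX 36 to 44. Of 18 antigen presentation genes 2 did, with a median of 0.54, and Cd74, the class II invariant chain, had a log2 fold change of 0.49 ± 0.42. Interferon response genes, 25 tested, had 1 higher and 1 lower. Lymphocyte and leukocyte genes, 7 of 24 passing the filter on low counts, were all above 0 with a median of 0.81 and 2 under 0.05.

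Matrix genes showed no separation. Of 34 tested, 0 had an unadjusted p under 0.05, 19 were above and 15 below 0, and the median was 0.07, or -0.08 without PX 44. Col3a1, a fibrillar collagen, had 410.4, 1331, 1633, 967, 556 and 601 CPM in PX 57 to 70, against 1058, 913, 485, 1585 and 343 CPM in PX 36 to 44. PX 62 and PX 41, one from each run, were the highest, and PX 44 the lowest, so the runs overlapped throughout. The log2 fold change was 0.06 ± 0.42. Col1a1, the main fibrillar collagen, averaged 184 ± 111 CPM in PX 57 to 70 and 148 ± 130.3 CPM in PX 36 to 44, and Sparc, a collagen-binding matrix protein, averaged 666 ± 129.8 CPM in PX 57 to 70 and 628 ± 178 CPM in PX 36 to 44. Mesenchymal cell genes, 18 tested, had a median of 0.02 with 2 lower under 0.05, Pdgfrb and Mylk, a pericyte receptor and a contractile kinase. Pdgfrb, at 53.5, 72.4, 69.9, 59.2, 58.97 and 80.2 CPM in PX 57 to 70, against 86.04, 91.5, 97.03, 116 and 49.5 CPM in PX 36 to 44, had a log2 fold change of -0.42 ± 0.19. Of 15 endothelial genes 1 was higher and 2 lower under 0.05, and Kdr, the main VEGF receptor, did not separate fully at 108, 113, 118, 90.3, 129 and 163 CPM in PX 57 to 70, against 170.0, 149, 194, 161 and 221 CPM in PX 36 to 44. On the scale of all 21 libraries Flt1, of the same list, did not overlap between the runs. Its range was 112 to 169 CPM in PX 57 to 70 and 171 to 226 CPM in PX 36 to 44.

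Hormone genes gave no common direction: of 19 tested, 1 was higher and 1 lower under 0.05, with a median of -0.04. With the acinar score the median was 0.31, with 3 higher and 0 lower under 0.05. Ins1 and Ins2, the 2 rat insulin genes, whose near-identical copies can share reads, were measured separately. Ins1 averaged 81558 ± 29505 CPM in PX 57 to 70 and 57068 ± 14487 CPM in PX 36 to 44. Ins2 averaged 19616 ± 7987 CPM in PX 57 to 70 and 11542 ± 5766 CPM in PX 36 to 44. Their log2 fold changes were 0.52 ± 0.42 and 0.77 ± 0.41, within the spread of the libraries. Gcg, the glucagon gene, had 11888, 9576, 9583, 5991, 12450.4 and 6885 CPM in PX 57 to 70, against 4397, 6536, 4024, 11773 and 23156 CPM in PX 36 to 44. PX 44 alone, at 23156 CPM, exceeded all PX 57 to 70 libraries, and the log2 fold change was -0.09 ± 0.44. Pyy, the peptide YY gene, had 18.9, 12.05, 18, 28.7, 15.2 and 16.1 CPM in PX 57 to 70, against 9.80, 2.67, 12.1, 9.29 and 6.15 CPM in PX 36 to 44. PX 38 overlapped the low end of PX 57 to 70, and the log2 fold change was 1.17 ± 0.32 (edgeR, unadjusted p = 0.0023).

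Beta cell identity genes leaned slightly below 0. Of 27 tested, 24 had negative log2 fold changes with a median of -0.25, 3 were lower under 0.05 and 0 higher. The mean log2 CPM of the list gave p = 0.136 between the runs (two-sided exact permutation test, 0.405 adjusted over 13 library measures). Without PX 44 and PX 65 the median was -0.09 with 1 under 0.05, and it was 0.05 when the acinar score entered the fit. Under library totals it was -0.72, with 16 lower under 0.05. That scaling put the median over all genes at -0.50, with 3995 of 13529 genes lower under 0.05. Gipr, the receptor for the gut hormone GIP, had 296, 213, 174, 145, 228 and 289 CPM in PX 57 to 70, against 285, 409, 379, 255 and 346 CPM in PX 36 to 44. PX 57 and PX 70 overlapped PX 36 and PX 41, and the log2 fold change was -0.58 ± 0.20 (edgeR, unadjusted p = 0.011). Nkx2-2, a factor that keeps beta cells from other endocrine fates, had 44.6, 34.2, 36.7, 28.5, 41.5 and 59.5 CPM in PX 57 to 70, against 39.8, 63.9, 51.9, 41.1 and 159.7 CPM in PX 36 to 44. The value of PX 44 stood far above the other 10, whose runs overlapped. Mafa, which drives insulin transcription, averaged 111 ± 34.8 CPM in PX 57 to 70 and 115 ± 53.3 CPM in PX 36 to 44 (log2 fold change -0.05 ± 0.27), and Pdx1, a master factor of beta cells, had a log2 fold change of -0.01 ± 0.20. Secretion machinery showed a like pattern, with 24 of 29 below 0, a median of -0.24, and 6 lower and 2 higher under 0.05. Without PX 44 and PX 65 the median was -0.20, with 0 higher and 2 lower. With the acinar score it was 0.10, with 0 in either direction. Under library totals it was -0.71, with 15 lower and 0 higher, against a median of -0.50 over all genes. Cacna1d, a voltage-gated calcium channel subunit of islet cells, had 109, 126, 114, 107, 147 and 196 CPM in PX 57 to 70, against 179.7, 228, 241, 163 and 169.9 CPM in PX 36 to 44. PX 70 lay above 3 of the PX 36 to 44 libraries, and the log2 fold change was -0.56 ± 0.18.

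Genes that beta cells normally keep low had a median of 0.46 over 24 tested, 22 above 0 and 4 under 0.05. The median was 0.10 with 2 higher and 1 lower under 0.05 with the macrophage score, and 0.05 with 0 higher and 1 lower with the acinar score. Under library totals it was -0.10, where the median over all genes was -0.50. Ldha, which makes lactate, had 14.1, 54.4, 56.4, 32.03, 12.6 and 5.69 CPM in PX 57 to 70, against 11.3, 8.22, 7.48, 18.9 and 4.56 CPM in PX 36 to 44. PX 58, PX 62 and PX 65 were high, PX 41 was the highest of its run, and the log2 fold change was 1.54 ± 0.55 (edgeR, unadjusted p = 0.014). Aldh1a3, a retinoid enzyme raised in stressed beta cells, averaged 18.6 ± 5.02 CPM in PX 57 to 70 and 21.8 ± 8.11 CPM in PX 36 to 44. Txnip, a glucose-responsive inhibitor of thioredoxin, had 339, 558, 434, 1241, 443 and 340.0 CPM in PX 57 to 70, against 644, 159, 238, 224 and 105 CPM in PX 36 to 44. PX 65 was the highest of the 11, PX 36 lay above 5 of the 6 PX 57 to 70 libraries, and the log2 fold change was 1.03 ± 0.45.

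**Figure D3:**
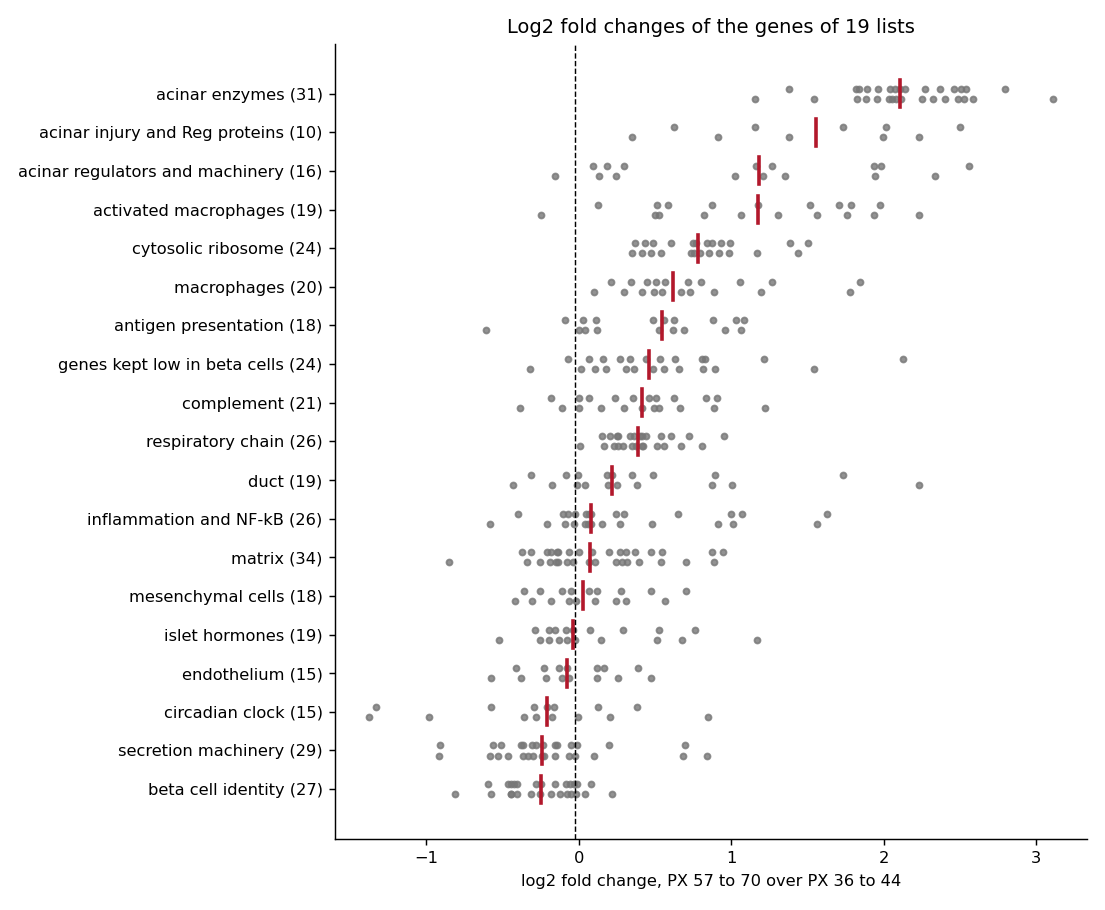
Each grey point is the log2 fold change, PX 57 to 70 over PX 36 to 44, of 1 gene in 19 lists, with the number of genes tested in brackets, the list median in red and the median of all genes as a dashed line. Acinar enzyme genes lie at 1.16 or more, matrix genes scatter around 0, and beta cell identity genes have a median of -0.25.

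Cytosolic ribosome genes were all above 0, 24 of 24, with a median of 0.78, 19 under 0.05, and 5 called by DESeq2. Under library totals the median was 0.21 with 1 under 0.05, where the median over all genes was -0.50. With the acinar score it was 0.37 with 0. Rplp0, a ribosomal stalk protein gene, had 335, 404, 458, 485, 346 and 221 CPM in PX 57 to 70, against 181, 200.1, 218, 255 and 138 CPM in PX 36 to 44. PX 70 alone overlapped the other run, at PX 41, and the log2 fold change was 0.92 ± 0.21 (edgeR, unadjusted p = 0.0006). Ribosomal protein genes have many near-identical pseudogenes, so counts are uncertain. Respiratory chain genes, 26 of 26 above 0, had a median of 0.39 with 12 under 0.05. Under library totals the median was -0.15, against -0.50 over all genes, and with the acinar score 0.14, each with 0 under 0.05. The median gene length was 936.5 bp in the ribosome list and 1116.5 bp in the respiratory chain list, against 2408 bp over all genes. The fold change moved with gene length over the whole table: the median was 0.35 in the shortest of 10 equal-sized classes of gene length (64 to 929 bp) and -0.23 in the longest. After subtracting the median of each gene's length class, the ribosome median was 0.59, the respiratory chain median 0.19 and the acinar enzyme median 1.94. The difference between short and long genes (median log2 CPM deviation) was 0.535, 0.271, 0.507, 0.574, 0.0975 and -0.281 in PX 57, 58, 62, 65, 66 and 70. It was -0.268, -0.629, -0.256, -0.007 and -0.382 in PX 36, 37, 38, 41 and 44. PX 70 lay with the second run. The part of gene length in these lists was not tested beyond this.

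**Figure D4:**
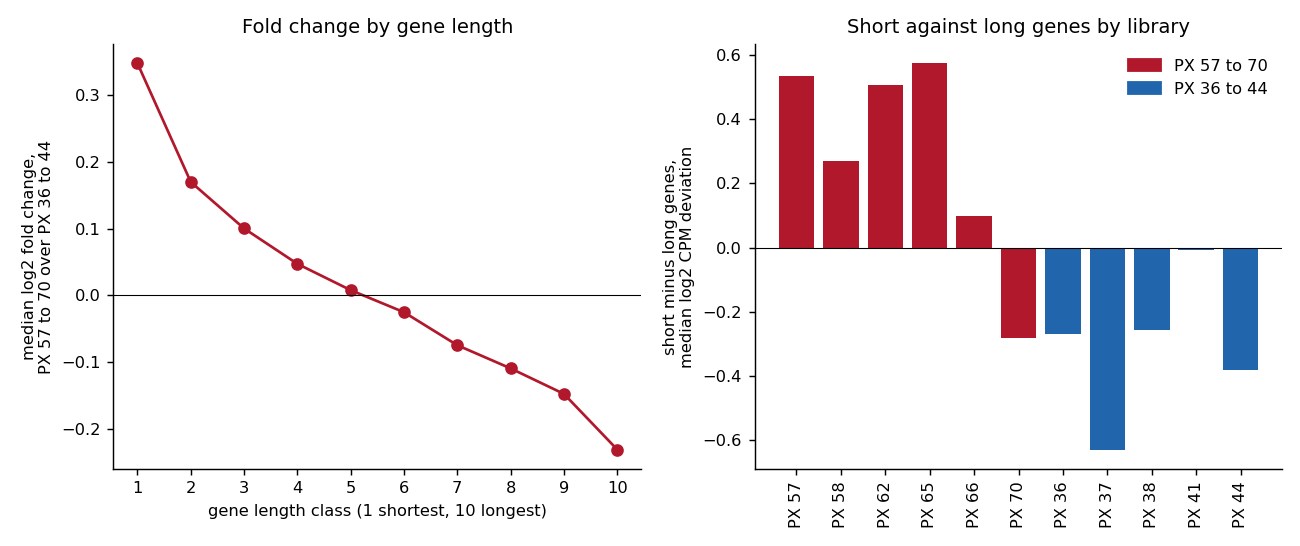
Left, the median log2 fold change, PX 57 to 70 over PX 36 to 44, in 10 classes of gene length. Right, the median log2 CPM deviation of short genes (1000 bp or less) minus that of long genes (over 4000 bp) in each PX library. The median is 0.35 in the shortest class and -0.23 in the longest, and 5 of the 6 PX 57 to 70 libraries are above 0 while all 5 PX 36 to 44 libraries are below.

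Mt1, a metal-binding metallothionein with close gene copies, had the largest log2 fold change of the antioxidant genes. Its values were 16.4, 14.7, 46.7, 54.4, 11.5 and 9.68 CPM in PX 57 to 70, against 1.40, 9.25, 2.75, 4.64 and 3.76 CPM in PX 36 to 44. All PX 57 to 70 values were above all PX 36 to 44 values, and the log2 fold change was 2.59 ± 0.56 (edgeR, unadjusted p = 0.0004). Of 24 antioxidant genes 7 were higher under 0.05 and 0 lower, with a median of 0.19. Without PX 65 the count was again 7 higher and 0 lower. Under library totals it was 5 higher and 4 lower, with a median of -0.29, against -0.50 over all genes. With the acinar score it was 0 in either direction, with a median of 0.29. After subtracting the median of each gene's length class, the list median was 0.03.

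Circadian clock genes oscillate daily in most cells. Of 15 tested, 3 were lower and 1 higher under 0.05, with a median of -0.21. With the acinar score the median was -0.07, with 3 lower and 0 higher under 0.05. Per3, a repressor of the loop, had 5.44, 8.96, 6.68, 3.54, 7.66 and 7.68 CPM in PX 57 to 70, against 8.27, 25.1, 20.6, 10.6 and 19.9 CPM in PX 36 to 44. The runs overlapped only where PX 58 lay above PX 36, and the log2 fold change was -1.33 ± 0.30 (edgeR, unadjusted p = 0.00055). DESeq2 called it lower. Nr1d1, which represses the activating arm, had 2.35, 6.18, 4.41, 4.10, 5.47 and 4.61 CPM in PX 57 to 70, against 4.58, 18.5, 23.2, 4.35 and 8.63 CPM in PX 36 to 44. PX 37 and PX 38 were far above all others, and the log2 fold change was -1.37 ± 0.42. Cry1, a late repressor, ran the other way at 0.85 ± 0.28. The time of day of each collection is not given in the labels.

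The smallest p in the table belonged to Mir376c, a microRNA gene named here after its values were seen. It had 2.03, 2.68, 1.79, 1.68, 2.33 and 4.00 CPM in PX 57 to 70, against 14.1, 11.7, 7.48, 4.50 and 8.87 CPM in PX 36 to 44. No value overlapped, although PX 70 and PX 41 were close, and the log2 fold change was -1.94 ± 0.31 (edgeR, unadjusted p = 2.1e-05, adjusted p = 0.169). Its mature products, from RefSeq build GRCr8 on chromosome 6, are printed 5′ to 3′ with the seed, bases 2 to 8, in capitals.
rno-miR-376c-3p (chr6:134558256-134558276, plus strand): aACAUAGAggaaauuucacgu
rno-miR-376c-5p (chr6:134558219-134558239, plus strand): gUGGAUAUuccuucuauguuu
The gene is 84 bp long in the deposited table, and the libraries were of polyA RNA, not a small RNA assay. Of 22 microRNA genes tested, 18 were below 0 with a median of -0.65, and 9 of 11 on chromosome 6 were below 0. Among genes of the 43 lists DESeq2 called 1 lower, Per3.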

How the data were processed

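Per the file headers, the deposited table holds read counts per gene for 21 rat islet libraries, with gene length and position. Per the submitters' processing notes the tools were FastQC, Subread, featureCounts and limma. The sources used here give no version, genome build or counting strand. Per the labels' protocols, RNA was extracted with a miRNeasy kit and libraries were directional.

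Counts of the 11 PX libraries were filtered with filterByExpr (minimum count 10, total 15), scaled by TMM and compared with edgeR 4.0.16 (quasi-likelihood, robust, two-sided, Benjamini-Hochberg over all 13529 genes, threshold 0.05) in R 4.3.3. DESeq2 1.42.0 and limma 3.58.1 were alternatives, and the script was tested on simulated data. Single values per library were compared by exact permutation over 462 assignments, where the smallest p is 0.00216. No 2 PX libraries of a run agreed within counting noise (chi-square per degree of freedom of 15.1 or more). Intervals were not computed. The spread between libraries, which exceeds counting noise, limits the precision.

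The runs and the 43 gene lists, 829 genes of which 669 were tested, were chosen with earlier results of these data known. Genes to name were 28 set ones and up to 3 per list by p, and Mir376c, Dpep1 and other list members given with values were chosen after their values were seen. The submitters' own comparison table was not used, and 1 gene is not reported here.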

Additional observations from a re-analysis of the deposited data

Results flagged for a closer look

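In 26 of 312 groups of values examined, 1 library stood apart from the rest of its run by Dixon's test, where chance gives about 1 in 20. The groups share libraries and genes and are not independent, so no excess over chance is read from the count. PX 65 accounts for most of the 26. It stood above the other PX 57 to 70 libraries in acinar share, at 54.6% of counts, and in the mean log2 CPM of the acinar enzyme genes, at 13.8. In log2 CPM it was the high library for Cpa1 (14.98), Cel (15.38), Ctrl (14.00), Spink1 (9.67), Ptf1a (4.17), Cldn10 (5.14), Aqp12a (9.43), Tmed6 (7.27) and Tff2 (11.28). It was also high for Dpep1 (6.80), a membrane dipeptidase, and for Tst (6.16), Btg2 (7.35) and Pdk1 (5.74).

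Other libraries of PX 57 to 70 that stood apart in log2 CPM were PX 57, high for Msln (10.42), PX 58, high for Tnc (6.85), and PX 70, low for Frzb (2.96) and Aldoc (0.96). In PX 36 to 44, PX 44 had the largest total, 11205114 counts, and low log2 CPM for Spink1 (4.28), Csf3r (-0.79) and Lipe (1.82). PX 37 was high for Mafa (7.72), PX 38 low for Mmp9 (-1.96, from 0 counts) and PX 41 low for Tgfb2 (4.48).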

How the results depend on the processing

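No paired analysis was possible because the runs share no animal number. The main count was 0 higher and 0 lower. Scaling by library totals gave 5 higher and 2 lower, and 4 list members called. DESeq2 gave 198 higher and 26 lower, with 32 list members. limma voom with quality weights gave 1 higher (Zg16) and 1 list member, and a fit of all 21 libraries gave 1 lower (Mir376c). Leaving out each library in turn gave 0 to 7 higher, 0 to 0 lower and 0 to 4 list members. The 7 came without PX 65. Leaving out PX 44 and PX 65, chosen after seeing the data, gave 6 higher and 3 list members, and 661 higher and 499 lower at an unadjusted p under 0.05. The cause was not tested. Under library totals, the acinar enzyme median was 1.25, against 2.11 with TMM, and the mean log2 CPM difference was -0.18 for duct, -0.47 for mesenchymal and -0.76 for beta cell identity genes. The median log2 fold change over all genes was -0.50 with that scaling. With the acinar score as a covariate 74 genes were higher and 111 lower at an unadjusted p under 0.05 in edgeR, and the acinar enzyme median was -0.01. Of 143 named genes, 34 changed sign with that covariate, 13 with the macrophage score and 21 under library totals. Depth was lowest in PX 37, at 4001908 counts, which limits genes of low level.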

Other observations

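Other metabolic and stress genes gave scattered values. Of 21 glycolysis genes, 5 were higher and 0 lower at an unadjusted p under 0.05 in edgeR, with a median of 0.23. Without PX 65 the count was again 5 higher and 0 lower, with a median of 0.20. Under library totals it was 0 higher and 4 lower, with a median of -0.29, against -0.50 over all genes. With the acinar score it was 0 in either direction, with a median of 0.25. Tpi1, triose phosphate isomerase, had 29.5, 21.6, 25.2, 30.9, 16.1 and 19.1 CPM in PX 57 to 70, against 14.4, 8.02, 13.3, 12.3 and 19.7 CPM in PX 36 to 44, with a log2 fold change of 0.79 ± 0.23. Slc2a1, a glucose transporter that many cell types use, had 39.7, 59.4, 58.3, 52.1, 33.1 and 34.6 CPM in PX 57 to 70, against 25.1, 24.9, 30.2, 31.9 and 34.05 CPM in PX 36 to 44. PX 66 lay below PX 44, so the runs overlapped, and the log2 fold change was 0.66 ± 0.19. Of 15 hypoxia genes, 5 were higher and 2 lower, with a median of 0.15. Without PX 65, 5 of 14 tested were higher and 1 lower, with a median of 0.21. Under library totals 0 were higher and 3 lower, with a median of -0.44. With the acinar score 0 were higher and 0 lower, with a median of 0.20.

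Unfolded protein response genes, 28 tested, had 6 higher and 1 lower under 0.05 and a median of 0.05. Without PX 65 the count was 1 higher and 1 lower, with a median of 0.02. Under library totals it was 0 higher and 8 lower, with a median of -0.46, against -0.50 over all genes. With the acinar score it was 0 in either direction, with a median of -0.04. Herpud1, which acts in degradation of misfolded proteins, had 70.7, 72.8, 59.5, 157, 86.5 and 80.98 CPM in PX 57 to 70, against 52.4, 65.6, 65.1, 48.2 and 48.04 CPM in PX 36 to 44, and PX 65 was the highest. Hbb, a beta globin gene of red blood cells, had 73.8, 78.7, 99.7, 138, 26.4 and 21.2 CPM in PX 57 to 70, against 43.02, 21.4, 14.6, 33.7 and 12.1 CPM in PX 36 to 44, with a log2 fold change of 1.55 ± 0.47. Its list of 5 blood cell genes had 2 under 0.05 and a median of 0.66. TGF-beta pathway genes, 16 tested, had 3 lower and 0 higher, among them Tgfb2 at -0.47 ± 0.16.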
